A study of Mus musculus with 8 samples.

Results

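The genes described here encode receptors for glutamate, GABA, glycine, serotonin, purines, and noradrenaline, as measured by RNA-seq in mouse sympathetic ganglia with and without normal *Isl1*. They were taken by symbol, as every gene whose name begins with a stem of the glutamate receptor (*Gria*, *Grik*, *Grid*, *Grin*, *Grm*), GABA receptor (*Gabr*, *Gabbr*), glycine receptor (*Glra*, *Glrb*), serotonin receptor (*Htr*), P2X and P2Y purine receptor, or alpha and beta adrenergic receptor families. The symbols found 44 genes among the 14189 listed in all, of which 36 were listed at E11.5 and 35 at E14.5, with 27 at both stages. Of the 44, *Grid2ip* encodes a protein that binds the delta glutamate receptor and is not itself a receptor. The mm9 annotation holds 90 protein-coding genes with such names, and 46 of them were listed at neither stage.

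At E11.5, ganglia of *Isl1* conditional knockout (CKO) embryos, *Wnt1-Cre;Isl1* f/f, were compared with those of *Wnt1-Cre;Isl1* +/+ controls, and embryos of both genotypes also carried the *Rosa26-tdTomato* reporter, by whose fluorescence the ganglia were dissected. At E14.5, ganglia of *Isl1* hypomorphic embryos, *Isl1* f-neo/f-neo, whose allele lowers *Isl1* expression, were compared with those of wildtype (*Isl1* +/+) embryos. *Wnt1-Cre* acts in neural crest derivatives, so the blood, vessels, and macrophages of the CKO ganglia keep the gene. The labels name the mutants Isl1-/- at E11.5 and Isl1 mutation at E14.5, with 2 libraries in each of the 4 groups and the ganglia of about 10 embryos pooled in each library. The files hold 1 FPKM value per gene, genotype, and stage, in which the 2 libraries were combined, so no value below has an error, no difference was tested, and a 1.5-fold difference between genotypes is a description. FPKM is the number of fragments per kilobase of transcript, scaled to the size of the library, and it can be compared between genes since it is per length. The read depth is unknown. *Isl1* itself stood at 133 FPKM in controls and 40.0 in CKO ganglia, and at 162 in wildtype and 83.1 in hypomorphic ganglia.

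Sympathetic neurons are driven mainly by acetylcholine from preganglionic fibres, acting on nicotinic receptors, and release noradrenaline onto their targets. Receptors for the other transmitters modulate this relay. Ionotropic receptors (AMPA, kainate, NMDA, GABA-A, glycine, serotonin type 3, and P2X) are channels built from several subunits, so which subunits are expressed together decides which channels can form, whereas metabotropic receptors act through G proteins. Alpha-2 adrenergic receptors on sympathetic terminals sense the released noradrenaline and restrain further release.

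The promoters of 4 genes are shown because the results turn on them: *Htr3b* and *Grin2c* had the highest ratios of mutant to control at E11.5, *Gria2* had the lowest, and *Adra2c* was lower in the mutant at both stages. Each is the 250 bases before the annotated start in RefSeq, in build GRCm38.p6 and written 5′ to 3′ along the gene. They lie at chr9:48964991-48965240 (minus strand), chr11:115267244-115267493 (minus strand), chr3:80802836-80803085 (minus strand), and chr5:35278316-35278565 (plus strand). Capitals mark a PHOX2-type motif in *Htr3b* and the CG dinucleotides in the other 3.
Htr3b: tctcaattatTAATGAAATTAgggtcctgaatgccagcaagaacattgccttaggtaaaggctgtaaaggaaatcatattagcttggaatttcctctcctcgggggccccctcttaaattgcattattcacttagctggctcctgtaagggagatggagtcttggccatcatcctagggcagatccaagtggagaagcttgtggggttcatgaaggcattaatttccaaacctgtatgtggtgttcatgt
Grin2c: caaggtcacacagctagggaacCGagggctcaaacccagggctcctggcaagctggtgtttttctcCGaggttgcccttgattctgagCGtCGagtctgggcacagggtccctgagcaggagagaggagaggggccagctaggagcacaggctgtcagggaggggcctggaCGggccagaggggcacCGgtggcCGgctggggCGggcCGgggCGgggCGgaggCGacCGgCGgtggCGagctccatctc
Gria2: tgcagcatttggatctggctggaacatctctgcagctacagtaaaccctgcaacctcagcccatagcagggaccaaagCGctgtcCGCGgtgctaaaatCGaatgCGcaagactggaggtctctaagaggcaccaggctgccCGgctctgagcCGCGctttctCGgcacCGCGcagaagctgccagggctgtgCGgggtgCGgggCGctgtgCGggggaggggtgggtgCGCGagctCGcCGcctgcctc
Adra2c: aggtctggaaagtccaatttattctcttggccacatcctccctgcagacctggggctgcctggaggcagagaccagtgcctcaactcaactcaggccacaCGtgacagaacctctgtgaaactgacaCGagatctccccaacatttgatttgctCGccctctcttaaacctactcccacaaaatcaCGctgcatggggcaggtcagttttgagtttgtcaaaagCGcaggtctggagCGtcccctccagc

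The most raised genes had unlike promoters. That of *Htr3b* was 44.0% G and C with 1 CG dinucleotide, and that of *Grin2c* was 68.8% with 15. The promoters of *Gria2* and *Adra2c* were 64.8% and 53.6% G and C and held 19 and 6 CG dinucleotides. Over the 35 windows found for 29 of the 44 genes, the median G and C content was 61.2% and the median number of CG dinucleotides was 10, against 52.4% and 6 over all 32851 windows searched. On both strands, TAAT followed by any 2 bases and AATTA, a form bound by the PHOX2 homeodomain factors of sympathetic neurons, was found in 0.247% of all windows and in 1 receptor gene, *Htr3b*, where it begins 240 bases before the start. CTAATTG, a form bound by ISL1, was found in 1.77% of all windows and in *Grid2ip*, and the GATA form AGATAAG in 2.74% and in *Grin2d*. CTAATGG, another ISL1 form, and the cyclic AMP element TGACGTCA were found in 1.73% and 1.55% of all windows and in 0 of the 35. These matches are letters in a window and were not tested as binding sites.

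Most of the receptor genes were weakly expressed. In control ganglia the median level was 1.47 FPKM at E11.5 and 2.44 at E14.5, against 11.3 and 13.1 over all genes listed. The summed level was 186 FPKM in controls and 216 in CKO ganglia, and 366 in wildtype and 339 in hypomorphic ganglia. Only 7 of 36 genes reached 5 FPKM in E11.5 control ganglia and 12 of 35 in E14.5 wildtype ganglia. Among the highest were *Gabbr1*, *Grik5*, *Gria4*, and *Gria2* at E11.5, and *Gabbr1*, *Grik5*, *Gria4*, *Adra2a*, and *Gria2* at E14.5.

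**Figure D1:**
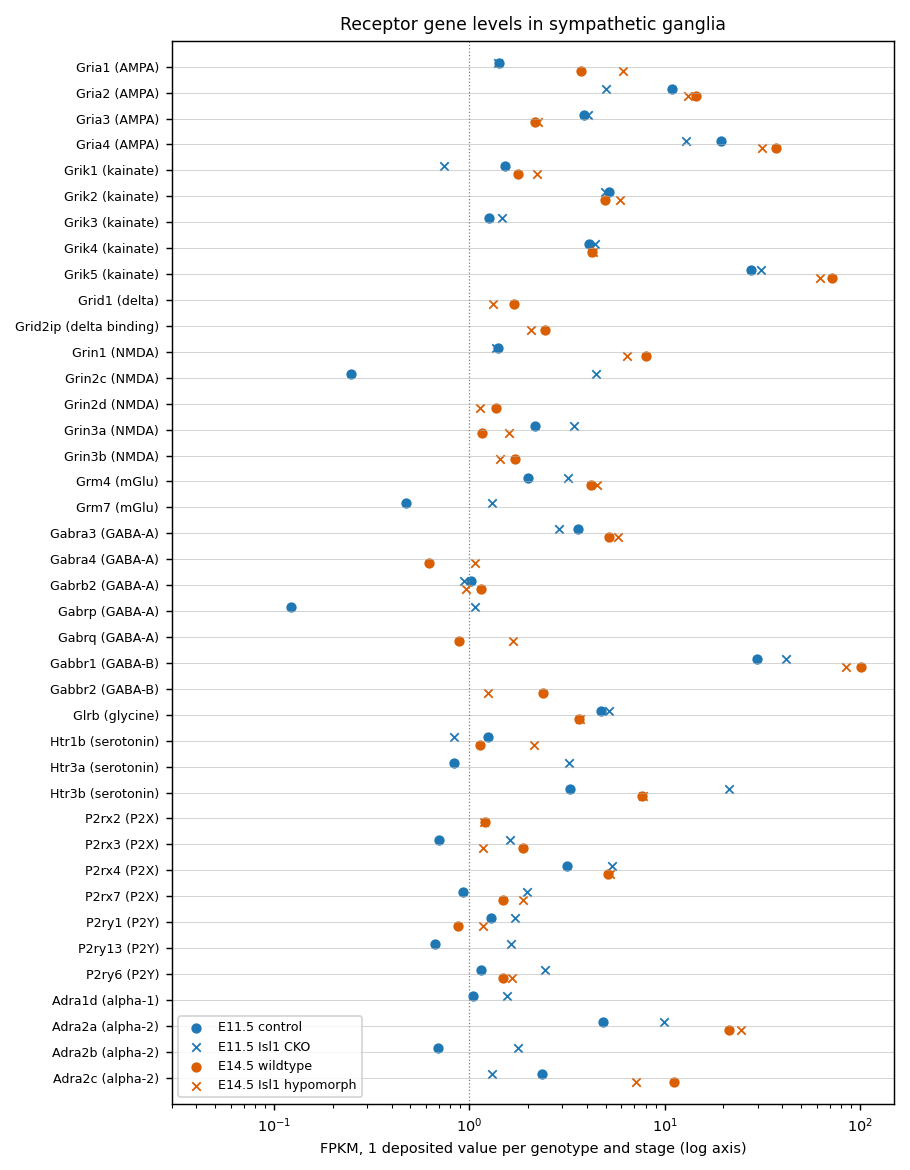
FPKM of 40 of the 44 receptor genes on a log axis, grouped by family, with 1 deposited value per genotype and stage, circles for control or wildtype ganglia and crosses for mutant ganglia. The dotted line marks 1 FPKM. *Gabbr1* and *Grik5* stand highest, at 101 and 72.2 FPKM in E14.5 wildtype ganglia, and most genes lie under 5 FPKM.

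At E11.5, 6 of the 36 genes listed (16.7%) were at least 1.5-fold lower in CKO than in control ganglia, 16 (44.4%) were at least 1.5-fold higher, and 14 were nearer. Of all 13506 genes, 12.9% were that much lower and 18.9% that much higher. The median log2 ratio of CKO over control was 0.44 for the receptor genes and 0.05 for all genes. The tables list a gene when it reaches 1 FPKM in either genotype, and 10 of the 36 were under 1 FPKM in control ganglia and thus listed through the CKO value alone, which made them higher by construction. All 10 are among the 16 higher genes, and they include *Grin2c*, *Grm7*, *Gabrp*, *Htr3a*, *P2rx3*, *P2rx7*, *P2ry13*, and *Adra2b*. In the same way, *Gabrb2*, *Grik1*, and *Htr1b* were under 1 FPKM in CKO ganglia and listed through the control value alone. Of these, *Grik1* is among the 6 lower genes. Without genes under 1 FPKM in either genotype, 5 of 23 were lower and 6 higher, with a median of 0.14. Of all 12442 genes kept by the same limit, 11.8% were lower and 15.5% higher, with a median of 0.03.

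At E14.5, 3 of 35 genes (8.57%) were at least 1.5-fold lower in hypomorphic than in wildtype ganglia, 4 (11.4%) were higher, and 28 were nearer. Over all 13413 genes the shares were 2.12% and 2.89%. The median log2 ratio was 0.02 for the receptor genes and 0.00 for all genes. Of the 4 higher genes, 2 (*Gabra4* and *Gabrq*) were under 1 FPKM in wildtype ganglia and listed through the hypomorphic value, which fixed their direction. Without genes under 1 FPKM in either genotype, 3 of 31 were lower and 2 higher. Of all 13021 genes kept by that limit, 1.76% were lower and 1.87% higher. Of the 7 genes apart, 5 were under 5 FPKM in both genotypes, and so were 15 of the 22 at E11.5.

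**Figure D2:**
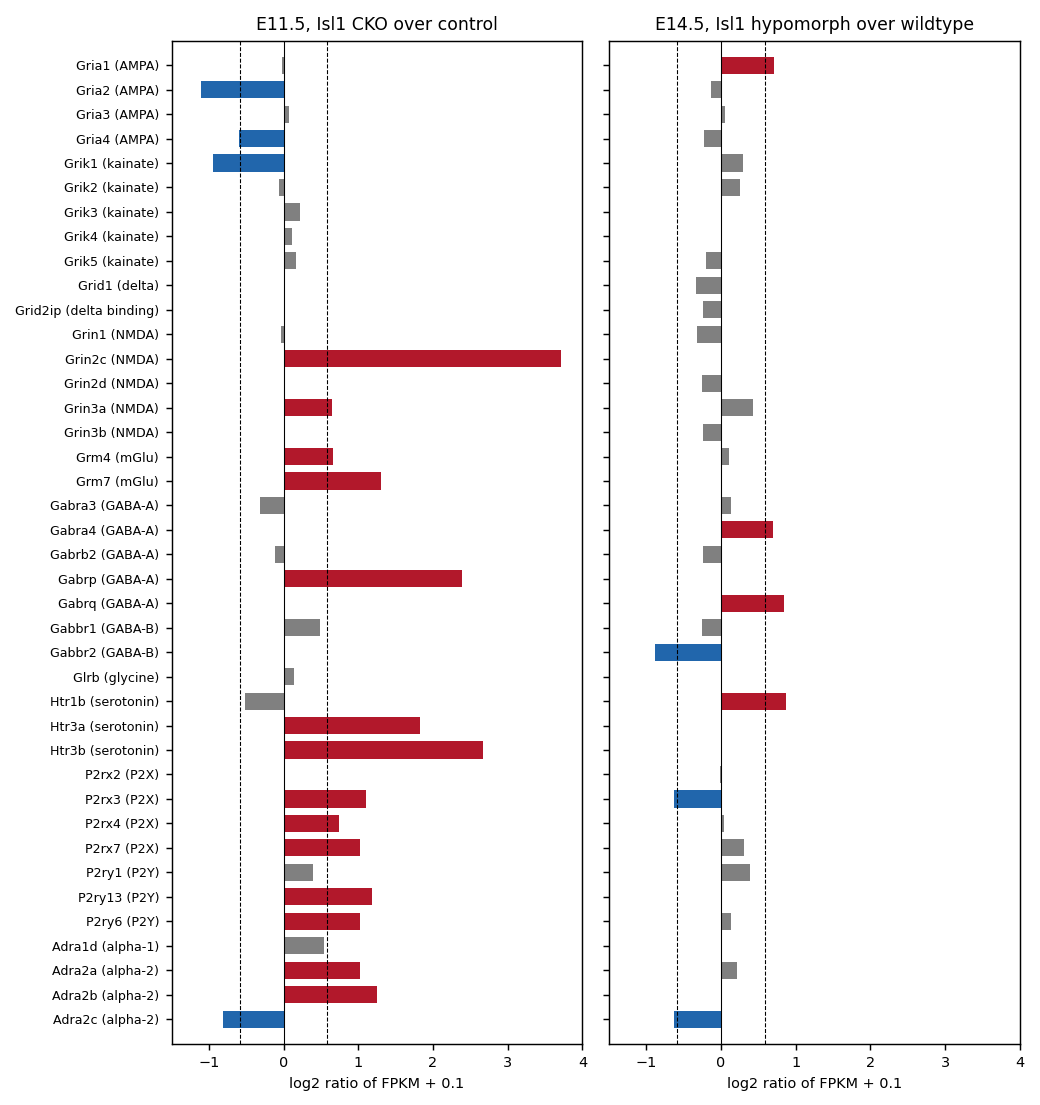
Bars give the log2 ratio of FPKM + 0.1, mutant over control, for 40 of the 44 receptor genes at E11.5 (left) and E14.5 (right), in blue for at least 1.5-fold lower, red for at least 1.5-fold higher, and grey between the dashed lines that mark 1.5-fold. A gene with no bar on a side was not listed at that stage or was near 0, and the longest bar is *Grin2c* at 3.71.

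The AMPA receptor genes, which encode the fast glutamate channels, held 2 of the 6 genes lower at E11.5. *Gria2*, at chromosome 3, 80488858 to 80606713 (mm9, minus strand), encodes the subunit that makes AMPA channels poorly permeable to calcium. It stood at 10.9 FPKM in controls and 5.01 in CKO ganglia (log2 ratio -1.11) and at 14.5 in wildtype and 13.2 in hypomorphic ganglia. *Gria4*, at chromosome 9, 4417899 to 4796234 (minus strand), encodes a subunit with rapid gating that is prominent early in development. It stood at 19.5 FPKM in controls and 12.9 in CKO ganglia, just past 1.5-fold with a log2 ratio of -0.60 (-0.57 and short of it with a pseudocount of 1), and at 37.1 and 31.6 at E14.5. *Gria4* was the most abundant AMPA receptor gene in every group, with 54.7% of the family's summed FPKM in E11.5 control ganglia, 55.2% in CKO, 64.5% in E14.5 wildtype, and 59.4% in hypomorphic ganglia. The ratio of *Gria4* to *Gria2* was 1.79 in E11.5 control and 2.57 in CKO ganglia, against 2.55 and 2.39 at E14.5.

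*Gria1* showed the other pattern. It stood at 1.42 FPKM in controls and 1.40 in CKO ganglia and at 3.72 in wildtype and 6.13 in hypomorphic ganglia, a log2 ratio of 0.71 at E14.5. *Gria3* was between 2.16 and 4.04 FPKM in the 4 groups and was within 1.5-fold at both stages.

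Kainate receptors modulate release and firing. *Grik5*, at chromosome 7, 25794872 to 25857388 (mm9, minus strand), encodes a subunit that binds glutamate with high affinity but forms channels only together with the subunits of *Grik1*, *Grik2*, or *Grik3*. It stood at 27.8 FPKM in controls and 31.1 in CKO ganglia, and at 72.2 in wildtype and 62.6 in hypomorphic ganglia. It was thus in excess over the most abundant of those partners, *Grik2*, by 5.33 times in control, 6.27 times in CKO, 14.6 times in wildtype, and 10.6 times in hypomorphic ganglia. *Grik2* stood at 5.21 and 4.97 FPKM at E11.5 and at 4.94 and 5.91 at E14.5. *Grik1*, listed at E11.5 through the control value, was lower in CKO ganglia by construction, at 1.52 against 0.744 FPKM (log2 ratio -0.94). At E14.5 it stood at 1.78 and 2.21. *Grik3* and *Grik4* were between 1.26 and 4.42 FPKM wherever listed and within 1.5-fold.

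NMDA receptors need the obligate subunit of *Grin1* and a second kind of subunit. *Grin1* stood at 1.41 FPKM in controls and 1.36 in CKO ganglia, and at 8.03 in wildtype and 6.39 in hypomorphic ganglia. *Grin2a* and *Grin2b*, which encode its usual partners in the forebrain, were not listed. *Grin2c*, at chromosome 11, 115110483 to 115128557 (mm9, minus strand), encodes the partner typical of the cerebellum and of astrocytes, and had the highest ratio of all the receptor genes. It stood at 0.249 FPKM in controls and 4.46 in CKO ganglia (log2 ratio 3.71) and was not listed at E14.5. It was listed at E11.5 through the CKO value alone, which fixed the direction of this ratio. Its share of the family's summed FPKM was 6.52% in control and 48.1% in CKO ganglia. *Grin3a*, which encodes a subunit that lowers calcium entry, stood at 2.16 and 3.44 FPKM at E11.5 (log2 ratio 0.65) and at 1.16 and 1.61 at E14.5. *Grin2d* and *Grin3b* were listed at E14.5, between 1.14 and 1.72 FPKM, and within 1.5-fold.

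The metabotropic glutamate receptor genes were low. *Grm4*, for a presynaptic metabotropic receptor, stood at 1.99 and 3.22 FPKM at E11.5 (log2 ratio 0.67, or 0.50 and short of 1.5-fold with a pseudocount of 1) and at 4.17 and 4.52 at E14.5. *Grm7*, for another such receptor, stood at 0.473 and 1.32 FPKM at E11.5, listed through the CKO value, and was not listed at E14.5. *Grid1* and *Grid2ip*, listed at E14.5 alone, were between 1.32 and 2.44 FPKM and within 1.5-fold.

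GABA-A receptors are chloride channels, most often of 2 alpha, 2 beta, and 1 gamma or other subunit. Of the 5 GABA-A genes listed at E11.5, 2 were at least 1.5-fold lower in CKO ganglia, 1 was higher, and 2 were nearer. Over all genes, 12.9% were that much lower and 18.9% higher. The GABA-A genes summed to 46.0 FPKM in controls and 29.1 in CKO ganglia. At E14.5, 0 of 6 were lower and 2 were higher, against 2.12% and 2.89% of all genes, with sums of 43.4 and 48.1 FPKM. *Gabra3* was the most abundant alpha gene, at 3.60 and 2.87 FPKM at E11.5 and 5.21 and 5.75 at E14.5, and *Gabra2* and *Gabra5* were not listed. *Gabrb2* was within 1.5-fold and between 0.935 and 1.15 FPKM.

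Other GABA-A genes that differed were at or near the limit of listing. *Gabrp*, which encodes the pi subunit known from epithelia and the reproductive tract, stood at 0.122 FPKM in controls and 1.06 in CKO ganglia (log2 ratio 2.39). It was listed at E11.5 through the CKO value and was not listed at E14.5. *Gabra4* stood at 0.620 and 1.07 FPKM at E14.5 (log2 ratio 0.70). *Gabrq*, for the theta subunit, stood at 0.887 and 1.67 FPKM at E14.5 (log2 ratio 0.85). *Gabra4* and *Gabrq* were listed through the hypomorphic value, and with a pseudocount of 1 they were at 0.35 and 0.50, short of 1.5-fold.

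The GABA-B receptor is a G protein coupled receptor that works as a pair of unlike subunits, of which that of *Gabbr1* binds GABA and that of *Gabbr2* carries the receptor to the surface and signals. *Gabbr1*, at chromosome 17, 37182911 to 37212012 (mm9, plus strand), was the most abundant receptor gene of the 44. It stood at 29.8 FPKM in controls and 41.6 in CKO ganglia, and at 101 in wildtype and 84.3 in hypomorphic ganglia, within 1.5-fold at both stages. *Gabbr2*, at chromosome 4, 46675190 to 47004745 (minus strand), was not listed at E11.5 and stood at 2.39 FPKM in wildtype and 1.25 in hypomorphic ganglia, which was the lowest ratio at E14.5 (log2 ratio -0.88). *Gabbr1* was thus 42.1 times as abundant as its partner in wildtype and 67.5 times in hypomorphic ganglia. The glycine receptor gene *Glrb*, whose beta subunit anchors the receptor to gephyrin, was at 4.71 and 5.19 FPKM at E11.5 and 3.66 and 3.68 at E14.5, and the alpha genes *Glra1* to *Glra4* were not listed.

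The serotonin type 3 receptor genes were far higher in CKO ganglia. *Htr3b*, at chromosome 9, 48743113 to 48773095 (mm9, minus strand), stood at 3.27 FPKM in controls and 21.3 in CKO ganglia (log2 ratio 2.67.) Of the 3 higher genes that reached 5 FPKM, it had a higher ratio than *Adra2a* and *P2rx4*. At E14.5 it stood at 7.70 FPKM in wildtype and 7.75 in hypomorphic ganglia. *Htr3a*, at chromosome 9, 48707319 to 48719204 (minus strand), encodes the subunit without which that of *Htr3b* makes no working channel. It stood at 0.838 FPKM in controls and 3.23 in CKO ganglia (log2 ratio 1.83) and was not listed at E14.5. *Htr3a* was listed at E11.5 through the CKO value alone, which fixed the direction of its ratio. *Htr3b* exceeded this partner by 3.90 times in control and 6.61 times in CKO ganglia. *Htr1b*, for an inhibitory receptor on nerve terminals, stood at 1.24 and 0.840 FPKM at E11.5 (log2 ratio -0.52) and at 1.13 and 2.15 at E14.5 (log2 ratio 0.87, or 0.56 and short of 1.5-fold with a pseudocount of 1). Its exons overlap on the opposite strand with *D430036J16Rik*, which stood at 1.03 and 0.470 FPKM at E11.5, and whether the authors counted by strand is not given in the sources used here.

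**Figure D3:**
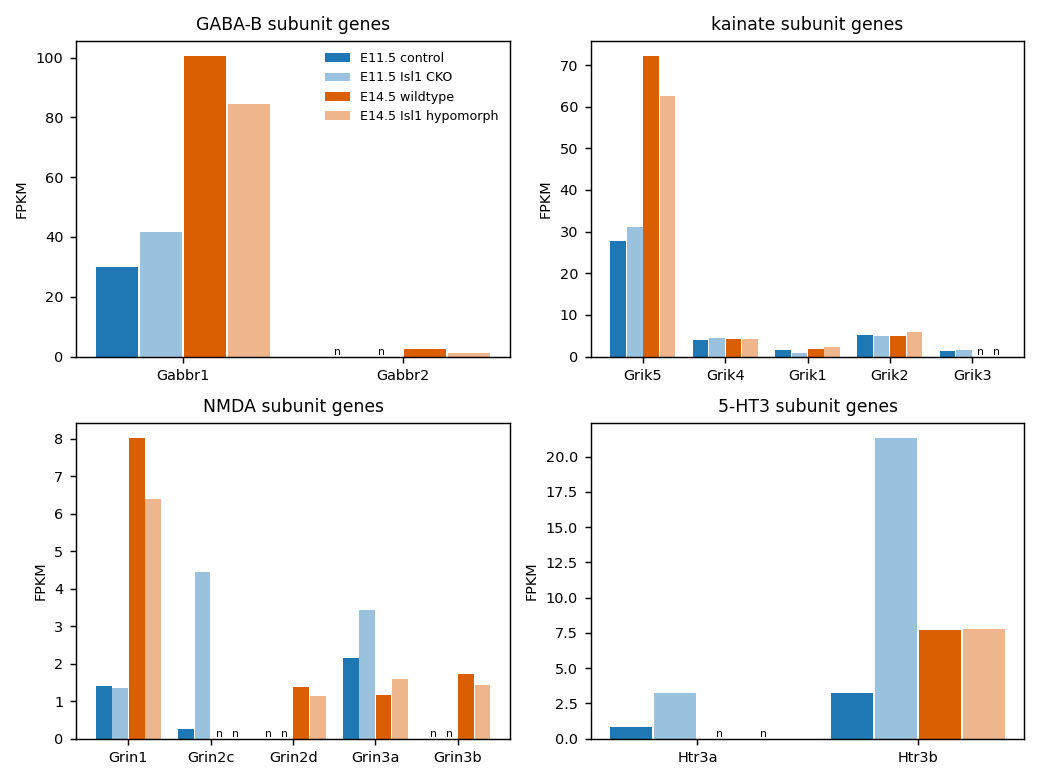
Bars give the FPKM, from 0 on a linear axis, of subunit genes that work together, in 4 panels for GABA-B, kainate, NMDA, and serotonin type 3 receptors and in 4 colours for the genotypes and stages, with n for a gene not listed. *Gabbr1* and *Grik5* stand far above their partners wherever both are listed, *Grin2c* is at 4.46 FPKM in CKO ganglia against 0.249 in controls, and *Htr3b* is above *Htr3a* in both E11.5 groups. *Grin2c* and *Htr3a* were listed through the CKO value alone.

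P2X receptors are ATP-gated channels, and 3 were listed at E11.5, of which *P2rx3* and *P2rx7* were listed through the CKO value and so were higher there by construction. *P2rx4*, common in neurons and macrophages, stood at 3.18 FPKM in controls and 5.37 in CKO ganglia (log2 ratio 0.74, or 0.51 and short of 1.5-fold on rescaling), and at 5.12 and 5.28 at E14.5. *P2rx7*, known for its role in macrophages, stood at 0.929 and 1.99 FPKM at E11.5 (log2 ratio 1.02) and at 1.497 and 1.88 at E14.5. *P2rx3*, known from sensory neurons, stood at 0.7004 FPKM in controls and 1.61 in CKO ganglia (log2 ratio 1.10), but at 1.88 in wildtype and 1.18 in hypomorph ganglia (log2 ratio -0.63). Of all genes in both tables, 1.27% were at least 1.5-fold apart in opposite directions at the stages. *P2rx3* lies at chromosome 2, 84838740 to 84877619 (mm9, minus strand), and its exons overlap those of *Ssrp1* on the other strand, which stood at 129.8 and 119.7 FPKM at E11.5 and at 100.4 and 107.8 at E14.5. Without strand, reads from the overlapping stretch cannot be told apart, and how much of *P2rx3* it covers was not measured. *P2rx2* stood at 1.202 and 1.19 FPKM at E14.5.

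P2Y receptors sense nucleotides through G proteins. *P2ry13*, a receptor for ADP, stood at 0.664 FPKM in controls and 1.63 in CKO ganglia (log2 ratio 1.18) and was not listed at E14.5. *P2ry6*, a receptor for UDP, stood at 1.15 and 2.44 FPKM at E11.5 (log2 ratio 1.03) and at 1.496 and 1.65 at E14.5. *P2ry1* was between 0.880 and 1.72 FPKM and within 1.5-fold at both stages.

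*P2ry13*, like *P2rx3* and *P2rx7*, was listed at E11.5 through the CKO value, so the listing fixed the direction of these differences, though not their size. Macrophage markers also differed. Of 14 macrophage and myeloid markers, 12 were listed, none of them at 0, and 11 of those were at least 1.5-fold higher in CKO ganglia, with a summed level of 67.3 FPKM in controls and 154 in CKO ganglia, while *Ptprc* and *Itgam* were not listed. At E14.5, 0 of 12 were 1.5-fold higher, with sums of 83.6 and 99.4 FPKM, and *P2rx4*, *P2rx7*, and *P2ry6* were within 1.5-fold. The sensory neuron markers, of which *P2rx3* is no member, were higher for 4 of the 6 listed at E11.5, with sums of 11.5 and 20.5 FPKM, and for 1 of 4 at E14.5, where the sums had a log2 ratio of 0.35. Of the 4 higher at E11.5, *Neurog2*, *Pou4f1*, and *Prdm12* were under 1 FPKM in control ganglia. They were listed through the CKO value, which fixed their direction. Among the 6 sensory neuron markers not listed at E11.5 were *Neurog1*, *Runx1*, and *Scn10a*. The part of either cell type in the receptor values was not tested.

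The alpha-2 adrenergic receptor genes parted. *Adra2a*, whose product is the main brake on noradrenaline release, stood at 4.85 FPKM in controls and 9.95 in CKO ganglia (log2 ratio 1.02), and at 21.3 in wildtype and 24.7 in hypomorphic ganglia. *Adra2c*, at chromosome 5, 35621215 to 35624410 (mm9, plus strand), whose product restrains release at low firing rates, stood at 2.36 and 1.303 FPKM at E11.5 (log2 ratio -0.81) and at 11.1 and 7.17 at E14.5 (log2 ratio -0.63), and with a pseudocount of 1 it fell short of 1.5-fold at both stages (-0.54 and -0.57). It was the 1 gene of the 27 listed at both stages that was at least 1.5-fold lower in both mutants, which carry different *Isl1* alleles, and 0.534% of all 12728 genes in both tables were. The ratio of *Adra2a* to *Adra2c* was 2.06 in control and 7.64 in CKO ganglia, and 1.92 in wildtype and 3.45 in hypomorphic ganglia, so it was higher in the mutant at each stage. *Adra2b* stood at 0.689 and 1.77 FPKM at E11.5, listed through the CKO value, and was not listed at E14.5.

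*Adra1d*, for an alpha-1 receptor, was at 1.05 and 1.57 FPKM at E11.5 and within 1.5-fold.

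Set side by side, the control ganglia of E11.5 and E14.5 show which receptor genes stood higher at E14.5. The tables were normalized separately, so these ratios are a description. The E11.5 controls also carried *Wnt1-Cre* and the reporter and were dissected by its fluorescence, unlike the E14.5 wildtype. Makeup differed too, with sympathetic neuron markers at 3610 and 6152 FPKM in sum and erythroid markers at 10890 and 5640. Age cannot be told apart from these differences. Of the 27 genes in both tables, 12 were at least 1.5-fold higher at E14.5 and 3 lower, with a median log2 ratio of 0.41. Over all 12728 genes in both tables, 29.7% were higher and 12.7% lower, with a median of 0.24. The steepest was *Grin1*, 5.39-fold higher at E14.5, followed by *Adra2c* at 4.57-fold, *Adra2a* at 4.33-fold, and *Gabbr1* at 3.37-fold. Among the 3 lower genes were *Gria3*, by 1.75-fold, and *Grin3a*, by 1.79-fold. The E11.5 control values are the same ones that the CKO values were set against.

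**Figure D4:**
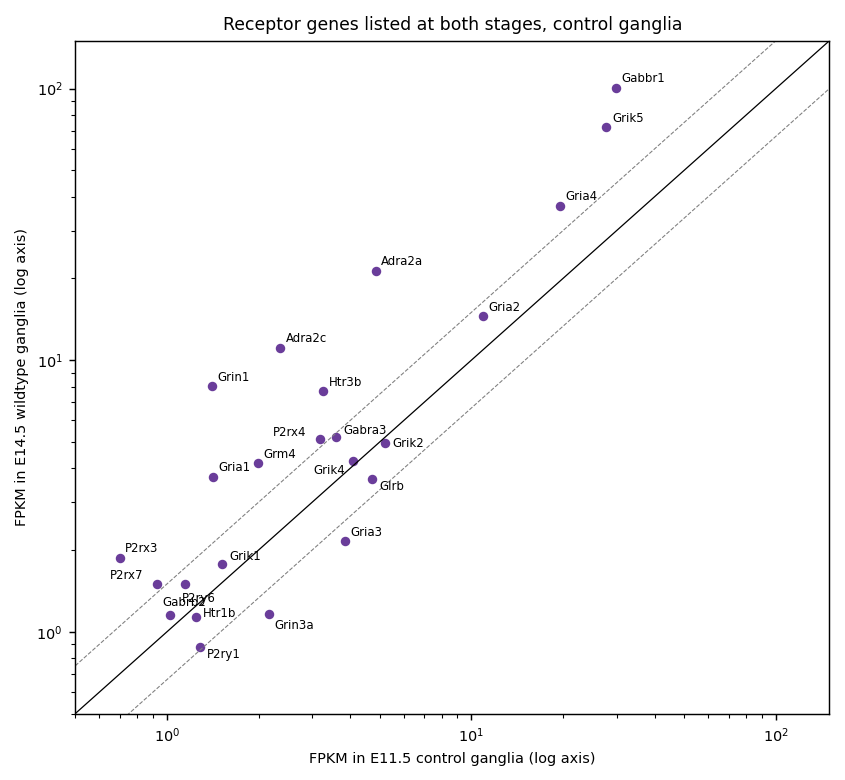
FPKM of 24 of the 27 receptor genes listed at both stages, E11.5 control ganglia against E14.5 wildtype ganglia, on log axes, with a solid line for equal values and dashed lines for 1.5-fold. *Grin1*, *Adra2c*, and *Adra2a* lie farthest above the line, at 5.39-fold, 4.57-fold, and 4.33-fold.

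The genes that serve these transmitters were counted by list. Of all genes, 12.9% were at least 1.5-fold lower and 18.9% higher at E11.5, and 2.12% and 2.89% at E14.5. These shares stand beside every list counted here and below. A gene under 1 FPKM in 1 genotype was again listed through the other alone, which fixed the direction of its difference but not the size. Of 26 listed partners of glutamate receptors, such as the AMPA receptor auxiliary subunits and postsynaptic scaffolds, 9 were at least 1.5-fold lower in CKO ganglia and 3 higher, with a median log2 ratio of -0.26. Of these, *Cacng2* and *Cacng5*, both lower, were listed through the control value, and *Shisa9*, higher, through the CKO value. The most abundant was *Cacng4*, which encodes an AMPA receptor auxiliary subunit, at 71.1 FPKM in controls and 32.5 in CKO ganglia (log2 ratio -1.13), beside *Gria2* and *Gria4*. *Cacng3*, for a subunit of the same family, was at 54.6 and 46.6 FPKM. At E14.5, 1 of 27 partners was lower, 0 were higher, and *Cacng4* stood at 146.6 and 120.2 FPKM. Of the genes for glutamate synthesis and transport, 1 of 5 listed was higher at E11.5 and 0 of 7 differed at E14.5. In this list *Glul* (glutamine synthetase) was at 47.5 and 68.9 FPKM at E11.5, and the vesicular glutamate transporter genes *Slc17a6*, *Slc17a7*, and *Slc17a8* were not listed at either stage.

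Among the genes for GABA and glycine synthesis, transport, and synapses, 2 of 10 were lower and 2 higher at E11.5. *Gad2*, 1 of the lower genes, was listed through the control value alone. *Slc6a9*, for a glycine transporter, stood at 3.37 and 13.6 FPKM (log2 ratio 1.98), while *Gabarap* and *Gabarapl1*, the most abundant, stood at 170.1 and 325.4 and at 39.5 and 47.6. At E14.5, 0 of 11 differed. *Gad1* and *Slc32a1*, for a GABA-making enzyme and the vesicular GABA transporter, were not listed at either stage. Of the genes for serotonin synthesis and transport, 4 of 7 were lower and 0 higher at E11.5. *Tph2*, 1 of the lower genes, was listed through the control value alone. *Maoa* and *Maob*, for the monoamine oxidases, stood at 147.0 and 68.3 FPKM (log2 ratio -1.11) and at 17.3 and 7.48 (log2 ratio -1.20), and *Ddc*, for the decarboxylase shared with catecholamine synthesis, stood at 195.3 and 172.2. At E14.5, 1 of 8 was lower and 1 higher, the latter being *Slc18a1*, for a vesicular monoamine transporter, at 18.2 and 44.4 FPKM (log2 ratio 1.28).

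Of the genes for purine release, breakdown, and adenosine reception, 1 of 14 was lower and 6 higher at E11.5, and 0 of 12 differed at E14.5. Of the 6 higher, *Entpd2*, *Enpp1*, *Adora1*, and *Adora2b* were under 1 FPKM in controls and listed through the CKO value, which fixed their direction. *Entpd3*, for an ATP-cleaving ectoenzyme, stood at 3.57 and 8.41 FPKM at E11.5 (log2 ratio 1.21), and *Panx1* and *Adk*, the most abundant in control, stood at 36.0 and 34.3 and at 26.3 and 30.2. Of the genes for adrenergic synthesis and receptor regulation, 2 of 18 were lower and 0 higher at E11.5, and 1 of 18 was lower at E14.5. *Slc6a2*, the noradrenaline transporter, stood at 61.4 and 18.9 FPKM at E11.5 (log2 ratio -1.70), beside *Gnas* at 2997 and 2173 and *Dbh*, for the noradrenaline-making enzyme, at 543.3 and 594.1.

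The makeup of the E11.5 ganglia moved with genotype, and in bulk tissue fewer cells of a type cannot be told apart from less RNA per cell. Sympathetic neuron markers were lower in CKO ganglia for 8 of 16, with summed FPKM of 3610 and 2908, alongside *Gria2* and *Gria4*, and 1 of 16 was lower at E14.5. Neural crest and glial markers were higher for 10 of 11, with sums of 391 and 757. Erythroid markers were higher for 12 of 13, with sums of 10890 and 69090 FPKM, and made up 2.29% of the summed FPKM in control and 11.2% in CKO ganglia, against 1.26% and 1.55% at E14.5. *Hbb-y*, an embryonic globin gene, was listed at 7552 FPKM in control and at 0 in CKO ganglia, and without it the sums were 3337 and 69090 FPKM, or 0.701% and 11.2%. Mesenchyme and perivascular markers were higher for 8 of 14, with sums of 683 and 1168 FPKM, skeletal and smooth muscle markers for 5 of 9, endothelial markers for 2 of 10, trophoblast and yolk sac markers for 8 of 8, and mesonephros and gonad markers for 3 of 4 at E11.5. Of the higher markers counted here, *Gata1*, *Cnn1*, *Prl8a2*, *Prl7a1*, *Apoa1*, *Ttr*, *Gata4*, and *Krt8* were under 1 FPKM in control ganglia. They were listed through the CKO value, which fixed their direction. The trophoblast and yolk sac sums were 136.7 and 514.0 FPKM, with *Prl8a2* at 0.241 and 48.4 and *Lama1* at 1.82 and 70.8. The part of all these cell types in the receptor values was not tested.

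**Figure D5:**
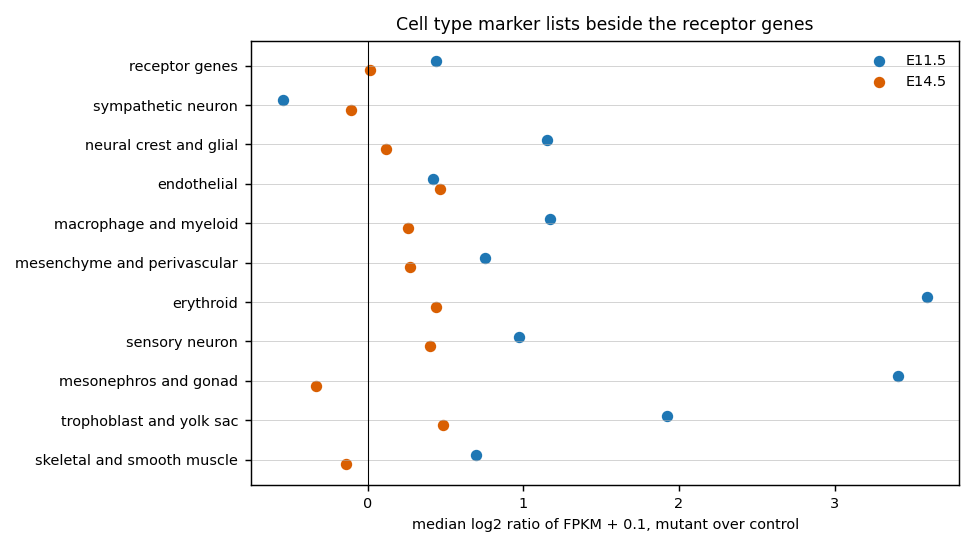
Median log2 ratio of FPKM + 0.1, mutant over control, for the 36 and 35 receptor genes and for 10 lists of cell type markers, in blue for E11.5 and orange for E14.5. At E11.5 the receptor genes lie at 0.44, near endothelial markers at 0.42. The marker lists then range from sympathetic neuron markers at -0.54 to erythroid markers at 3.59. At E14.5 the receptor genes lie at 0.02.

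Rescaling both E11.5 columns to the same sum without the erythroid list lowered the median of all genes from 0.05 to -0.18, and then 7 receptor genes were lower and 13 higher, against 3035 lower and 1648 higher genes in all (1746 and 2552 before). On that scale *Grin3a*, *Grm4*, and *P2rx4* were no longer 1.5-fold higher, with log2 ratios of 0.42, 0.44, and 0.51, and *Htr1b* became 1.5-fold lower at -0.72. The small differences of *Grik3*, *Grik4*, *Grik5*, *Gria3*, and *Glrb* changed sign, so no direction is given for them. *Htr3b* was then at 2.43, *Grin2c* at 3.48, and *Gria2* at -1.34.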

How the data were processed

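Poly(A) RNA of dissected ganglia was converted to cDNA, sequenced in pairs, and aligned to mm9, and the authors state TopHat 2.3.0 and cuffdiff 2.2.1 in the methods. The submitters' processing notes instead name Bowtie, TopHat 1.3.1, Cuffdiff 1.3.0, and dm3, a fly build, and the conflict was not settled here. The authors deposited FPKM values made by cuffdiff, 1 per gene and genotype from 2 libraries, in 2 tables, 1 per stage, in which every gene reached 1 FPKM in either genotype. Columns of the authors' own fold changes and p-values were not used, and 0 columns lacked a group. Use of strand in counting is not given in the sources used here.

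From these, log2 ratios of FPKM + 0.1, mutant over control, were computed, and 1.5-fold was the threshold for a call. No test, SD, or interval is possible with 1 value per group, and depth is unknown, so no precision can be stated. The receptor genes, the 6 pathway lists, and the 10 marker lists were chosen with earlier results of these data known. Receptor genes at 5 FPKM or more in any group, or 1.5-fold apart, were named with their values, and others by range. Of each pathway list the 2 most abundant genes in control at E11.5 and any 2-fold apart at 5 FPKM or more were named. Genes not listed, and genes listed through 1 genotype alone, were added after their values were seen. Some genes, including 4 of the 44 receptor genes, are counted here but not reported by name. Gene positions are from the mm9 annotation. Promoter windows are from RefSeq (GRCm38.p6), matched by symbol, and 1 chromosome was not searched. Alternatives tried were another pseudocount (1 or 0.01), no filter on low FPKM, a minimum of 5 FPKM in at least 1 genotype, a minimum of 1 FPKM in each genotype, ratios centred on their median, columns rescaled without erythroid genes, and thresholds of 2-fold and 1.2-fold. A median counted as moved by 0.1 and a count by 1.5 times. Python 3.11.15, numpy 2.4.6, pandas 2.3.3, and matplotlib 3.10.9 were used.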

Additional observations from a re-analysis of the deposited data

Results flagged for a closer look

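*P2rx3*, which encodes an ATP-gated channel subunit, was the 1 receptor gene of 27 listed at both stages that was at least 1.5-fold apart in opposite directions, as were 1.27% of all 12728 genes in both tables. Its log2 ratio was 1.10 in *Isl1* CKO over control ganglia at E11.5 (0.7004 and 1.61 FPKM) and -0.63 in hypomorphic over wildtype ganglia at E14.5 (1.88 and 1.18 FPKM). The difference between the stages was not tested, since each genotype has 1 value, and the alleles differ between the stages. In E11.5 control ganglia the gene was under 1 FPKM, and with a pseudocount of 1 the E14.5 ratio was -0.40.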

How the results depend on the processing

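No receptor gene that was 1.5-fold apart changed direction under any alternative, but this was fixed beforehand. Pseudocounts, filters, and thresholds cannot change the sign of a ratio, and centring and rescaling moved ratios by less than 1.5-fold. With a pseudocount of 1, the 6 lower and 16 higher genes at E11.5 became 3 and 14, and the median log2 ratio went from 0.44 to 0.29. At E14.5 the 3 lower and 4 higher genes became 1 and 1. Of all genes with that pseudocount, 1426 were lower and 2029 higher at E11.5, and 188 and 217 at E14.5. With a minimum of 5 FPKM in at least 1 genotype, 11 genes remained at E11.5, with a median of 0.14. Of these, 4 were lower and 3 higher, in place of 6 and 16. Of all genes under that limit, 1325 were lower and 1556 higher, with a median of 0.02. At E14.5, 14 receptor genes remained, of which 1 was lower and 1 higher. Of all genes kept there, 173 were lower and 225 higher. With a minimum of 1 FPKM in each genotype, 5 were lower and 6 higher at E11.5, with a median of 0.14, and 3 and 2 at E14.5. Of all genes kept by it, 11.8% were lower and 15.5% higher at E11.5, and 1.76% and 1.87% at E14.5. Rescaling without erythroid genes gave a median of 0.21 at E11.5. A 2-fold threshold left 1 lower gene at E11.5, *Gria2*, and 13 higher, which include the 10 under 1 FPKM in control ganglia. Of all 13506 genes, 652 were lower and 1137 higher at that threshold. At E14.5 it left 0 lower and 0 higher, against 105 and 131 of all 13413 genes. There a 1.2-fold threshold gave 5 and 8, against 1209 and 1638. The pseudocount of 0.01 and centring moved none of the counts or medians past their limits, and dropping the filter could change nothing, since it removed 0 genes. With a pseudocount of 1, *Adra2c* was at -0.54 at E11.5 and -0.57 at E14.5, *Gria4* at -0.57, and *Grik1* at -0.53, so these fell short of 1.5-fold. The minimum of 1 FPKM in each genotype leaves out the 10 genes under 1 FPKM in E11.5 control ganglia, all of them higher. No paired analysis was possible because each deposited column combines the libraries of a genotype, and for the same reason leaving out a replicate could not be done.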

Other observations

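Several of the receptor genes are neighbours in the genome (mm9). *Htr3a* and *Htr3b*, 23908 bases apart on chromosome 9 and on the same strand, were both higher in CKO ganglia, and so were *P2rx7* and *P2rx4*, 16151 bases apart on chromosome 5. *Htr3a* and *P2rx7* were listed at E11.5 through the CKO value. *Gria2*, at a log2 ratio of -1.11, is 40807 bases from *Glrb* on chromosome 3, which was within 1.5-fold.

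The exons of 8 receptor genes overlap an annotated gene on the other strand, among them *Adra1d*, *Grin1*, *Grin2c*, *Grin3b*, *Grm7*, *Htr1b*, and *P2rx3*. For *Grin3b* the partner is *Tmem259*, of which RefSeq gives ORF61, the name in the annotation, as a synonym, and which stood at 75.3 FPKM in wildtype and 63.8 in hypomorphic ganglia.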
